A study of Mus musculus with 12 samples.

Results

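Aminoacyl-tRNA synthetases attach amino acids to their tRNAs, and their genes were followed in whole spinal cord RNA sequencing of mice that carry a deletion in a single member of the family, Gars. The members were taken by symbol from a list of 38 genes, out of 38924 genes in the tables: 19 cytosolic enzymes or subunits, 3 scaffold proteins of the multisynthetase complex and 16 mitochondrial enzymes. Gars itself, the gene for glycyl-tRNA synthetase, was not a member. The cords came from 12 mice aged 8 weeks on a mixed B6J;FVB background. Wild-type (WT) cords numbered 6, and 6 were heterozygous for GarsdelETAQ, called ETAQ/+ here, an allele whose name spells the residues that it lacks. Each genotype held 3 females and 3 males. The sequenced RNA was a mixture from all cell types of the cord, in which fewer cells of a type and less RNA per cell cannot be told apart.

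Cytosolic synthetases charge the tRNAs used by cytoplasmic ribosomes. Several of them assemble with the scaffold proteins Aimp1, Aimp2 and Eef1e1 into the multisynthetase complex, while a separate set of nuclear genes encodes the enzymes that serve protein synthesis inside mitochondria. Many cytosolic synthetase genes are activated in the integrated stress response by the transcription factor Atf4, which binds a DNA element called CARE. Dominant variants in several human synthetase genes, including the human counterpart of Gars, cause inherited axonal neuropathy.

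The libraries held between 23595929 and 41452662 expected counts each, and all 38 members passed the filter on low counts. Gars could not check the genotype labels, since the tables give its total level and no allele. That total stood at 127 ± 4.95 normalised CPM (mean ± SD, n = 6) in WT and at 145 ± 5.79 in ETAQ/+. Normalised CPM are expected counts scaled to the library total after TMM adjustment. Markers of neurons, astrocytes and oligodendrocytes were present in every mouse, as the tissue label says, and of 5 astrocyte markers Slc1a3 was called (log2 fold change 0.19). The 5 neuron markers summed to 3234 to 3409 CPM in WT cords and to 2904 to 3166 CPM in ETAQ/+ cords, without overlap. Stmn2 was called (-0.30), while Syt1 stood at -0.01. The 5 tested motor neuron markers summed to 176 to 205 CPM in WT cords and 116 to 148 CPM in ETAQ/+ cords, with 2 of the 5 called. None of these markers was at 0 in a mouse, and the part of these differences in the synthetase values was not tested. Markers of tissue around the cord followed the mouse numbers in the titles: red cell markers summed to 1890 to 3510 CPM in mice 1 to 6 and to 143 to 268 CPM in mice 7 to 12, skeletal muscle markers to 43.4 to 762 CPM against 0.814 to 1.49 CPM, neutrophil and marrow markers to 80.4 to 149 CPM against 0.286 to 3.10 CPM, and Schwann cell markers to 321 to 751 CPM against 75.2 to 98.8 CPM. In mice 1 to 6 all 3 WT cords were male, and in mice 7 to 12 all 3 WT cords were female, so results for the members are also given within each set of mice. The ETAQ/+ cords of each set held both sexes. Since sex and set coincide in WT, the sex term of those contrasts came from the ETAQ/+ cords alone. The contrasts within a set are therefore not free of sex.

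Transcripts of 8 cytosolic synthetases rose in ETAQ/+ cords, by 9.57% (Tars) to 33.3% (Cars), and no member fell past the threshold. The 8 were Cars, Mars, Iars, Lars, Aars, Wars, Tars and Rars. They made up 8 of the 38 members and 8 of the 19 cytosolic enzymes, where 0.582% of the 17189 genes tested rose and 1.34% fell, 1.92% in all (edgeR quasi-likelihood test, sex as covariate, Benjamini-Hochberg adjusted p below 0.05). None of the 3 scaffold genes and none of the 16 mitochondrial enzymes was called in either direction. The median log2 fold change was 0.11 over the cytosolic enzymes, 0.01 over the scaffold genes and 0.01 over the mitochondrial enzymes, beside 0.00 over all genes tested. Of the cytosolic enzymes 15 had a positive fold change and 4 a negative value, while the mitochondrial enzymes divided into 8 and 8.

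**Figure D1:**
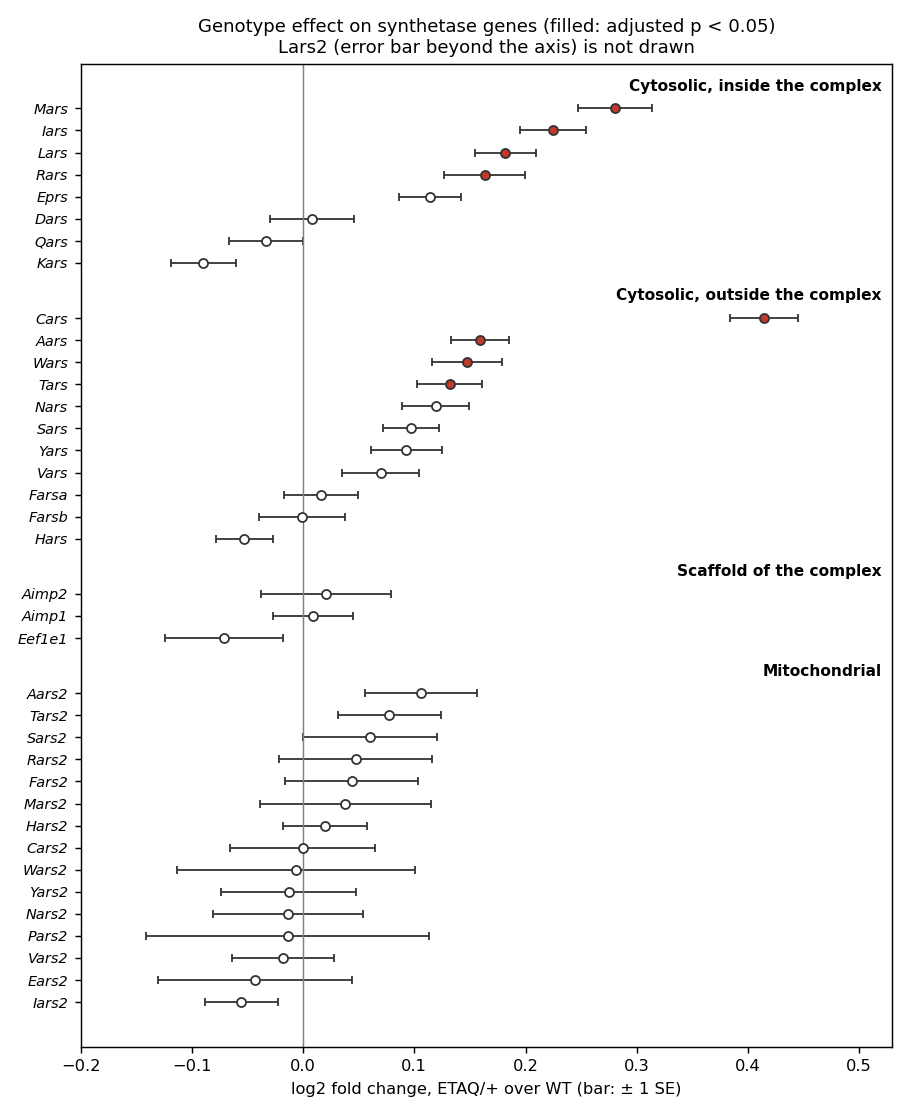
Genotype effect on the members except Lars2, as the log2 fold change of ETAQ/+ over WT (horizontal axis, bars ± 1 SE), grouped by place in the cell, with filled points for an adjusted p below 0.05 in edgeR. The 8 filled points all lie right of 0 among the cytosolic enzymes, from 0.13 (Tars) to 0.41 (Cars), and the scaffold and mitochondrial points lie between -0.07 and 0.11.

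The cytosolic enzymes outside the complex held the member with the largest fold change. Cars (ENSMUSG00000010755, chr7:143557230-143600090, GRCm38, minus strand), the cysteinyl-tRNA synthetase, read 36.9, 39.4 and 40.7 normalised CPM (lowest, median and highest of the mice) in WT and 50.7, 52.1 and 53.3 in ETAQ/+. Every ETAQ/+ cord lay above every WT cord, and the gap between the genotypes was wider than the range within either. The means were 39.1 ± 1.38 and 52.0 ± 1.07 normalised CPM (SD, n = 6), and the log2 fold change with its SE was 0.41 ± 0.03 (adjusted p in edgeR = 1.44e-06). By p, Cars ranked number 19 of all 17189 genes tested.

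Aars (ENSMUSG00000031960, chr8:111033144-111057664, plus strand), which charges alanine, read 216, 221 and 226 normalised CPM in WT and 238, 247 and 256 in ETAQ/+. The mice of the genotypes did not overlap. The means of 221 ± 3.76 and 247 ± 6.43 gave a log2 fold change of 0.16 ± 0.03, with an edgeR adjusted p of 0.00309. In the GENCODE M21 annotation, 14.3% of its exon bases lie on the same strand as exons of Exosc6, and 13.2% of its 75-base sequences also occur in other genes, so its reads could be divided differently by the authors' counting and its value is uncertain to that degree.

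Wars (ENSMUSG00000021266, chr12:108860030-108894174, minus strand), the tryptophanyl enzyme, read 103, 108 and 113 normalised CPM in WT and 114, 121 and 125 in ETAQ/+. The highest WT cord and the lowest ETAQ/+ cord were close, and no mouse crossed. The means were 108 ± 3.68 and 120.0 ± 4.05, a log2 fold change of 0.15 ± 0.03 with an edgeR adjusted p of 0.0222.

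Tars (ENSMUSG00000022241, chr15:11382301-11399665, minus strand), the threonyl enzyme, read 33.6, 34.6 and 35.8 normalised CPM in WT and 37.6, 38 and 38.2 in ETAQ/+. The ETAQ/+ cords were nearly level with each other and all above the WT cords. The means of 34.6 ± 0.773 and 37.9 ± 0.252 gave a log2 fold change of 0.13 ± 0.03, with an edgeR adjusted p of 0.0311.

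Inside the multisynthetase complex, 4 of the 8 enzymes rose. Mars (ENSMUSG00000040354, chr10:127296221-127311786, minus strand), which charges methionine on both initiator and elongator tRNA, read 43.7, 46.7 and 47.6 normalised CPM in WT and 54.5, 55.4 and 60.4 in ETAQ/+. Mouse 6, an ETAQ/+ male, stood above the other ETAQ/+ cords, and the remaining ETAQ/+ cords still lay above all WT cords. The means were 46.3 ± 1.52 and 56.2 ± 2.15, a log2 fold change of 0.28 ± 0.03 with an edgeR adjusted p of 0.000189. The 3′ end of Mars lies opposite Ddit3, the stress-response factor CHOP, over 68 bases or 1.99% of its exons. Ddit3 itself had a log2 fold change of 0.23 ± 0.09 and an edgeR adjusted p of 0.288.

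Iars (ENSMUSG00000037851, chr13:49682100-49734267, plus strand), the isoleucyl enzyme, read 102, 105 and 115 normalised CPM in WT and 119.7, 125 and 127 in ETAQ/+. Mouse 12 was the high WT cord, and it remained below every ETAQ/+ cord. The means were 106 ± 4.92 and 124 ± 2.66, a log2 fold change of 0.22 ± 0.03 with an edgeR adjusted p of 0.000516.

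Lars (ENSMUSG00000024493), the leucyl enzyme, which also reports leucine to the mTORC1 growth pathway, read 49.6, 51.4 and 52.6 normalised CPM in WT and 55.6, 58.7 and 59.6 in ETAQ/+. The genotypes did not overlap. The means were 51.3 ± 1.09 and 58.2 ± 1.41, a log2 fold change of 0.18 ± 0.03 with an edgeR adjusted p of 0.00159.

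Rars (ENSMUSG00000018848, chr11:35808381-35834506, minus strand), the arginyl enzyme, read 32.7, 35.3 and 35.8 normalised CPM in WT and 36.9, 38.7 and 40.9 in ETAQ/+. The lowest ETAQ/+ cord stood just above the highest WT cord. The means of 34.7 ± 1.2 and 38.9 ± 1.39 gave a log2 fold change of 0.16 ± 0.04, with an edgeR adjusted p of 0.0334. Cars, Mars, Iars, Lars and Aars were called in all 12 fits that left out a single mouse, whereas Wars was called in 8 of the 12, Tars in 2 and Rars in 1.

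**Figure D2:**
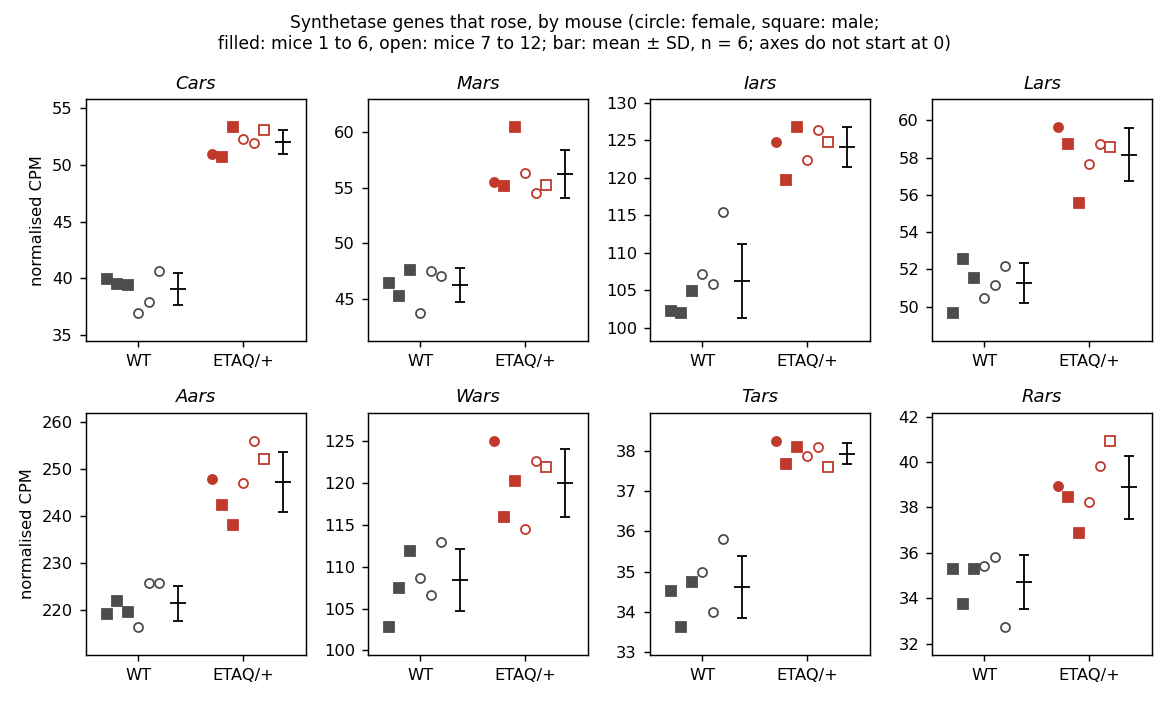
Normalised CPM (vertical axes, which do not start at 0) of the 8 synthetase genes that rose, with a point for each mouse (circles for females, squares for males, filled for mice 1 to 6, open for mice 7 to 12) and bars for the mean ± SD of 6 mice. In all 8 panels the ETAQ/+ mice lie above the WT mice without overlap; for Cars the highest WT mouse is at 40.7 and the lowest ETAQ/+ mouse at 50.7.

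Promoter sequence was examined because these genes rose together and the CARE element is a known Atf4 site. RefSeq promoter windows (GRCm38.p6, 250 bases before to 50 after the start of the gene) were matched for 29 of the 38 members, including 4 of the 8 that rose (Cars, Lars, Wars and Rars had no match). The core TGATGNAA was searched on both strands. It occurred in 4 members, each of which held at least the form TGATGCAA. The matches of Iars, Tars and Yars are given 5′ to 3′ on the strand that carries the match, with the match in capitals.
Iars, chr13:49682126-49682155, minus strand, match 8 to 15 bases after the start: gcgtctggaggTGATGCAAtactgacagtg
Tars, chr15:11399655-11399684, plus strand, match 15 to 8 bases before the start: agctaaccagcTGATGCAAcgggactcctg
Yars, chr4:129189895-129189924, plus strand, match 4 to 11 bases after the start: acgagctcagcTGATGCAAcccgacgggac
The search itself set all bases of the core except N, which was C in these matches. Tars and Yars also share cagc just before the core and c just after it, which Iars does not. TGATGCAA was present in 4 of the 12 cytosolic enzymes with a window, 0 of 3 scaffold genes and 0 of 14 mitochondrial enzymes, beside 0.895% of all 32851 promoter windows. The looser TGATGNAA was present in 3.97% of all windows. Among the 4 called members with a window 3 held the core, including Iars and Tars, and among the 8 uncalled cytosolic enzymes with a window only Yars held it. These matches are descriptions of letters in a reference genome, and no binding was measured.

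The 11 cytosolic enzymes that missed the threshold had log2 fold changes from -0.09 (Kars) to 0.12 (Nars). Nars, the asparaginyl enzyme, read 282, 290.5 and 303 normalised CPM in WT and 306, 315 and 333 in ETAQ/+. Sars, the seryl enzyme, read 167, 174 and 176 in WT and 179, 185 and 189 in ETAQ/+. The mice of the genotypes did not overlap for either gene, which makes 10 members without overlap and higher in ETAQ/+, beside 0.657% of all genes tested; 0 members were without overlap and lower, beside 1.35%. Their log2 fold changes were 0.12 ± 0.03 (edgeR adjusted p = 0.0616) for Nars and 0.10 ± 0.03 (0.0735) for Sars, and neither passed the test.

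Eprs, the enzyme of the complex that joins glutamyl and prolyl activities in a single chain, read 134, 137 and 149 normalised CPM in WT and 145, 149.7 and 155 in ETAQ/+, with overlap. Its log2 fold change of 0.11 ± 0.03 had an edgeR adjusted p of 0.0534. Yars, the tyrosyl enzyme whose human counterpart is another neuropathy gene, read 99.3, 105 and 110.5 in WT and 108, 111 and 116 in ETAQ/+, a log2 fold change of 0.09 ± 0.03 with an edgeR adjusted p of 0.238. Nars, Sars and Eprs, but not Yars, passed the threshold in DESeq2 and in an edgeR fit with the set of mice as a further covariate.

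Kars, the lysyl enzyme of the complex, had the lowest fold change of the cytosolic group. It read 80.0, 81.3 and 84.8 normalised CPM in WT and 73.8, 76.2 and 82.0 in ETAQ/+, with the ranges overlapping. The means were 81.8 ± 1.72 and 76.9 ± 2.85, a log2 fold change of -0.09 ± 0.03 with an edgeR adjusted p of 0.198, so no fall was called.

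Hars, the histidyl enzyme, read 86.7, 90.3 and 90.6 normalised CPM in WT and 83.4, 86.7 and 87.7 in ETAQ/+, a log2 fold change of -0.05 ± 0.03 (edgeR adjusted p = 0.490). Qars, the glutaminyl enzyme of the complex, read 38.7, 40.2 and 42.8 in WT and 38.2, 39.6 and 40.6 in ETAQ/+, a log2 fold change of -0.03 ± 0.03 (adjusted p = 0.810). Dars, the aspartyl enzyme of the complex, read 52.0, 53.8 and 57.8 in WT and 51.6, 54.7 and 58.8 in ETAQ/+, a log2 fold change of 0.01 ± 0.04 (adjusted p = 0.973). For these 3 enzymes the WT and ETAQ/+ mice overlapped. The remaining cytosolic members, Vars and the Farsa and Farsb subunits of the phenylalanyl enzyme, had log2 fold changes from -0.00 to 0.07 and adjusted p values from 0.503 to 0.997. At an unadjusted p below 0.05, 12 of the 19 cytosolic enzymes were higher and 1 (Kars) was lower, beside 4.53% and 6.36% of all genes tested.

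Over all mice the scaffold genes had fold changes close to 0. Aimp1, which also gives rise to a secreted cytokine, read 29.1, 31.3 and 32.1 normalised CPM in WT and 29.6, 31.3 and 31.6 in ETAQ/+, with a log2 fold change of 0.01 ± 0.04 (edgeR adjusted p = 0.967). Aimp2, which holds the subcomplexes together, read 11.1, 12.7 and 13.6 in WT and 12.5, 12.7 and 12.9 in ETAQ/+, with a log2 fold change of 0.02 ± 0.06 (adjusted p = 0.948). Eef1e1, also called Aimp3, read 15.1, 16.4 and 18.9 in WT and 15.3, 15.8 and 16.4 in ETAQ/+, with a log2 fold change of -0.07 ± 0.05 (adjusted p = 0.721). For Eef1e1 the log2 fold change was -0.17 in females (edgeR unadjusted p = 0.0263, adjusted p = 0.486) and 0.03 in males. It was -0.17 within mice 7 to 12 and 0.03 within mice 1 to 6. The WT range was wider than the ETAQ/+ range for all 3 scaffold genes, and the ranges overlapped. Of the 75-base sequences of Aimp2, 25.1% also occur in Eif2ak1, which lies opposite it, so its counts are uncertain.

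Genes that rose were found both inside and outside the complex: 4 of 8 enzymes inside and 4 of 11 outside were called, with median log2 fold changes of 0.14 and 0.10. With the scaffold genes included, 4 of 11 complex members were called, with a median of 0.02. By the structural classes of the catalytic domain, 6 of 9 class I cytosolic enzymes and 2 of 9 class II enzymes or subunits rose, with medians of 0.16 and 0.02; Eprs, which has domains of both classes, was placed in neither. The differences between these groups of genes were not tested.

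Among the 16 mitochondrial enzymes edgeR called 0, beside 0.582% higher and 1.34% lower over all genes tested. At an unadjusted p below 0.05 edgeR also had 0, beside 4.53% higher and 6.36% lower. DESeq2 and limma-voom called 0 of the 16 as well. Over all genes tested DESeq2 called 0.942% higher and 2.0% lower, and limma-voom 0.582% higher and 1.29% lower. With shares of this size, a count of 0 among 16 genes does not set the class apart from all genes. The 4 mitochondrial enzymes with the smallest p were Aars2, Iars2, Tars2 and Sars2. Aars2 read 20.9, 22.2 and 23.3 normalised CPM in WT and 21.3, 24.1 and 25.8 in ETAQ/+, a log2 fold change of 0.11 ± 0.05 (edgeR adjusted p = 0.474). Iars2 read 67.0, 68.8 and 74.8 in WT and 65.3, 66.0 and 70.3 in ETAQ/+, a log2 fold change of -0.06 ± 0.03 (adjusted p = 0.607). The mice overlapped for both, and 22.1% of the 75-base sequences of Iars2 also occur in other genes. Tars2 read 20.1, 21 and 22.6 in WT and 20.3, 22.6 and 23.9 in ETAQ/+, a log2 fold change of 0.08 ± 0.05 (adjusted p = 0.617). Sars2 read 7.64, 8.32 and 9.16 in WT and 8.29, 8.68 and 9.44 in ETAQ/+, a log2 fold change of 0.06 ± 0.06 (adjusted p = 0.807). Again the genotypes overlapped. The other members of this group apart from Lars2 (Cars2, Ears2, Fars2, Hars2, Mars2, Nars2, Pars2, Rars2, Vars2, Wars2 and Yars2) had log2 fold changes from -0.04 to 0.05. Of the 75-base sequences of Farsb, Fars2 and Vars2, 6.24%, 7.9% and 5.42% also occur in other genes, so the values of these members are uncertain too.

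The mitochondrial genes were measured less precisely than the cytosolic genes, which bears on the count of 0. Without Lars2, the standard errors of their log2 fold changes ran from 0.03 to 0.13, against 0.03 to 0.04 for the cytosolic enzymes. The coefficient of variation over WT mice had a median of 6.30% against 3.40%. Differences of the size seen for Tars or Rars were therefore less detectable in the mitochondrial genes.

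Levels between genes were compared on the deposited TPM scale, which accounts for gene length. In WT cords the cytosolic enzymes ran from 23.4 ± 1.38 TPM (Lars) to 219.5 ± 15.5 TPM (Sars), with a median of 46.4 TPM over the enzymes. Nars stood next below Sars at 201 ± 10.3 TPM, and Hars, at 84.4 ± 4.74 TPM, came after a gap. Without Lars2 the mitochondrial enzymes ran from 3.19 ± 0.375 TPM (Ears2) to 25.5 ± 2.10 TPM (Hars2). For 13 amino acids the list held both a cytosolic and a mitochondrial enzyme, and the cytosolic transcript was the more abundant in 12 of these pairs, from 1.55 times (Tars and Tars2) to 26.6 times (Sars and Sars2). Lars and Lars2 made the exception. The fold change with genotype was higher for the cytosolic enzyme in 11 of the 13 pairs and in 7 of the 8 pairs whose cytosolic enzyme was called. Those 8 pairs were picked by the rise of their cytosolic enzyme in these data, and they are also among the 13. The 7 of 8 therefore adds no support, and the difference within a pair was not tested. Of the 8 genes that rose, 6 stood below that median in WT, such as Cars at 31.6 ± 1.32 TPM and Mars at 31.4 ± 1.57 TPM, while Aars (72.1 ± 3.75 TPM) and Wars (70.5 ± 4.80 TPM) stood above it.

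**Figure D3:**
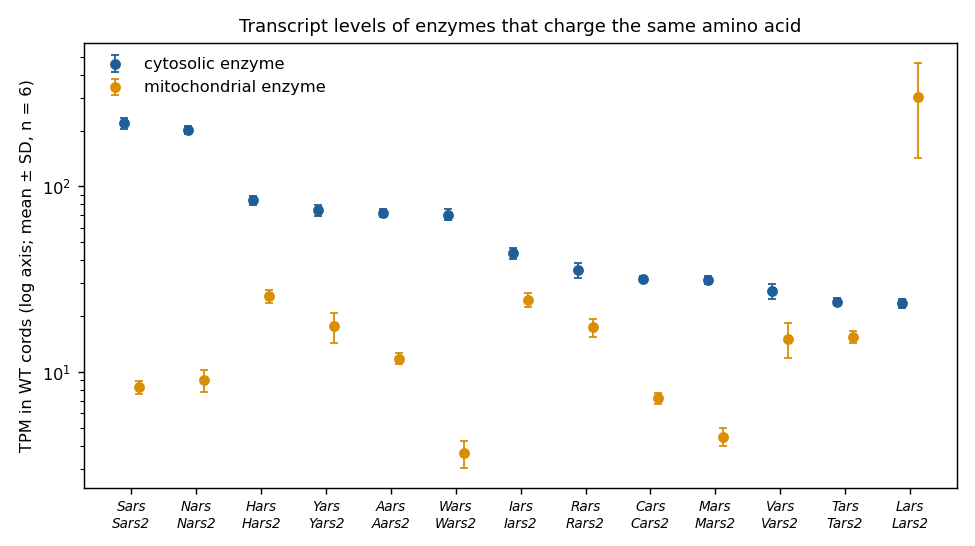
TPM in WT cords (log axis; mean ± SD, n = 6) of the cytosolic (blue) and mitochondrial (orange) enzymes for 13 amino acids, ordered by the cytosolic level. The cytosolic point is the higher in 12 pairs, and Lars2 lies above Lars with an error bar from 161 TPM of SD.

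Females and males were then read separately, in a fit in which all 12 cords share the estimate of the spread. This fit had no term for the set of mice. The WT females all came from mice 7 to 12, whereas the ETAQ/+ females included mouse 1. The WT males all came from mice 1 to 6, whereas the ETAQ/+ males included mouse 11. The contrasts therefore also compare the sets in part. Skeletal muscle markers had median log2 fold changes of 4.79 in females and -2.88 in males. In females Cars (0.43 ± 0.04, edgeR adjusted p = 0.000200), Mars (0.27 ± 0.05, 0.0168) and Lars (0.19 ± 0.04, 0.0436) rose, 3 of 38 members beside 0.198% of all genes. In males Cars (0.40 ± 0.04, 0.000348), Iars (0.26 ± 0.04, 0.00657) and Mars (0.29 ± 0.05, 0.00966) rose, 3 of 38 beside 0.227%. No member fell in either sex, beside 0.541% and 0.442% of all genes. All 8 genes called over all mice had positive fold changes in both sexes. Their genotypes did not overlap over these same mice, so the shared sign was fixed in advance and adds no support. The interaction of genotype and sex called 0 members and 0 of all genes in edgeR (0% of those tested), with 0 members at an unadjusted p below 0.05, and called 0 members in DESeq2 and limma-voom. The calls in females rested on few mice: without mouse 1, 7, 8 or 9, 1 member (Cars) was called.

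The cords of mice 1 to 6 held more of the red cell, muscle and Schwann cell transcripts than those of mice 7 to 12. Within mice 1 to 6, Cars (0.39 ± 0.05, edgeR adjusted p = 0.000520), Mars (0.31 ± 0.05, 0.00824) and Iars (0.26 ± 0.04, 0.00710) rose, 3 of 38 members beside 0.279% of all genes. Within mice 7 to 12 Cars (0.44 ± 0.05, 0.000193), Mars (0.26 ± 0.05, 0.0270) and Aars (0.18 ± 0.04, 0.0326) rose, 3 of 38 beside 0.250%. No member fell in either set, beside 0.524% and 0.686% of all genes. All 8 called genes had positive fold changes in both sets, and those of Wars, Tars and Rars lay between 0.12 and 0.19 in each. These genes were picked for being higher over the same mice, so the shared sign is no separate support. Between the sets of mice themselves, edgeR, DESeq2 and limma-voom each called 0 members, while edgeR called 4.93% of all genes higher in mice 1 to 6 and 2.96% lower. At an unadjusted p below 0.05, edgeR had 3 members lower in mice 1 to 6 (Dars, Pars2 and Rars2) and 0 higher. Of the 17189 genes tested, 1738 were lower and 2026 higher at that threshold. Without mouse 7, 1 member (Dars, -0.13) was called lower in mice 1 to 6 (edgeR adjusted p = 0.0380). With the set as a further covariate, 11 members rose, beside 0.878% of all genes, and 0 fell, beside 1.83%.

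**Figure D4:**
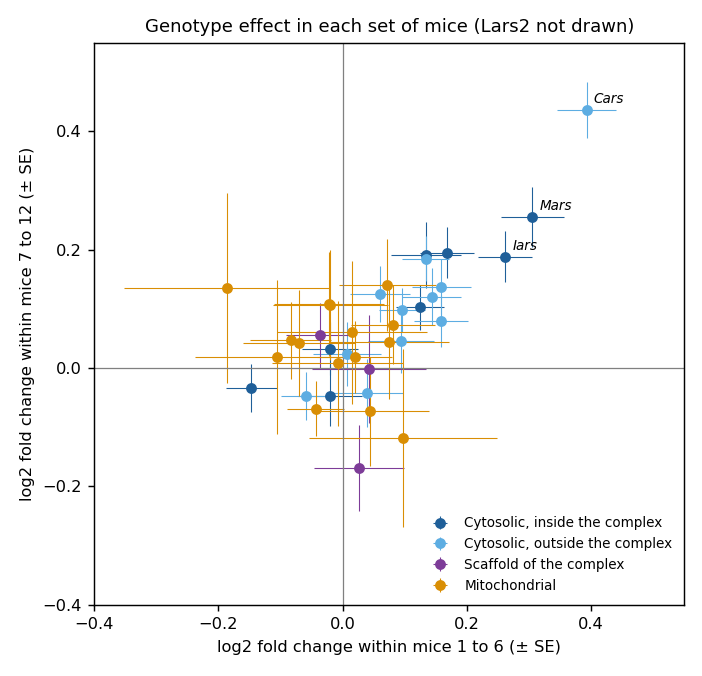
Log2 fold change of ETAQ/+ over WT within mice 1 to 6 (horizontal axis) and within mice 7 to 12 (vertical axis), with bars of ± 1 SE, for the members except Lars2, coloured by group. Cars, Mars and Iars lie at the upper right. They read 0.39, 0.31 and 0.26 in mice 1 to 6 and 0.44, 0.26 and 0.19 in mice 7 to 12. The scaffold and mitochondrial points lie on both sides of 0, among them Eef1e1 at 0.03 and -0.17 and Pars2 at -0.19 and 0.14.

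Lars2, the mitochondrial leucyl enzyme, stood apart from all other members in its spread. In CPM of the library total it read 228 to 371 in mice 2, 3, 5, 6 and 12, of which 3 were WT and 2 ETAQ/+, and 738 to 1370 in the other 7 mice, of which 3 were WT and 4 ETAQ/+. Of the 5 low mice, 4 were males of mice 1 to 6 and 1 was a female of mice 7 to 12. The WT coefficient of variation was 52.8%, beside at most 13.2% for the other mitochondrial enzymes. The log2 fold change with genotype was 0.38 ± 0.51 (edgeR adjusted p = 0.871), from -0.75 within mice 1 to 6 to 1.33 within mice 7 to 12, and the difference between these values had an unadjusted p of 0.104 in edgeR. At 303 ± 161 TPM in WT (SD, n = 6) it was above every other member.

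Among 14859 genes with a mean of at least 1 CPM, the same 5 mice were the lowest in 106, and in 6 of these the medians of the low and high mice differed by at least 2-fold. The 6 were Gm26924, Gm15662, Lars2, Rn7sk, Gm26917 and Cdr1, chosen after their values were seen. Gm26924 read 2040 to 5657 CPM in the 5 mice and 12782 to 16595 CPM in the others. Rn7sk, a nuclear noncoding RNA made by RNA polymerase III, read 1.10 to 2.64 CPM against 2.89 to 5.0 CPM. Exons of Lars2 overlap no other gene in GENCODE M21. The part of these transcripts, or of the libraries that hold them, in the Lars2 values was not tested.

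**Figure D5:**
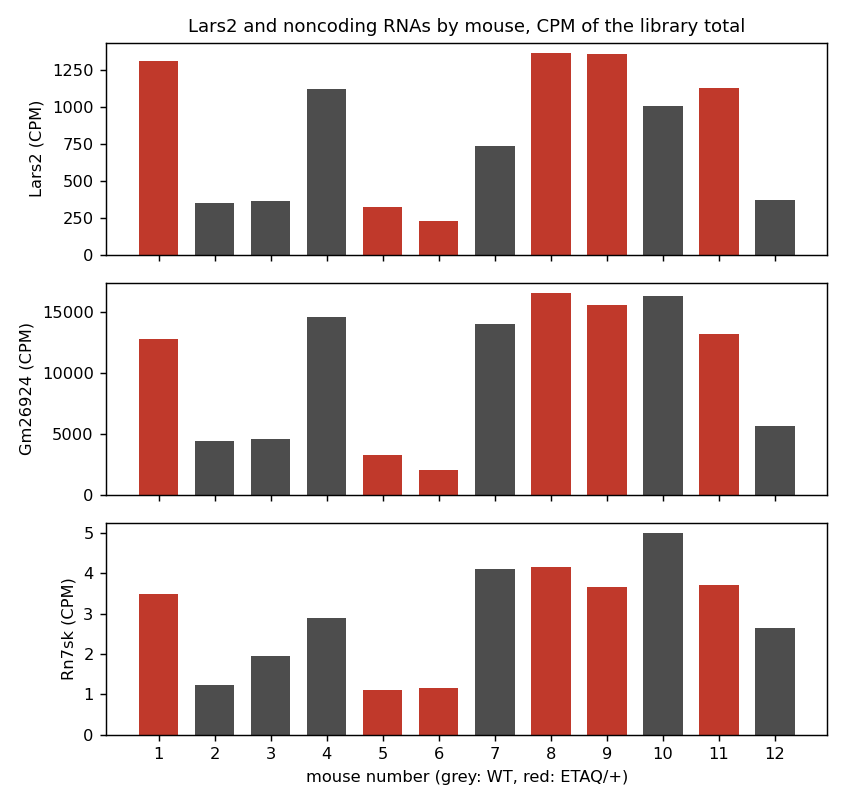
CPM of the library total (vertical axes) of Lars2, Gm26924 and Rn7sk in each of the 12 mice (horizontal axis), grey for WT and red for ETAQ/+. In all 3 panels mice 2, 3, 5, 6 and 12 hold the lowest bars, at up to 371, 5657 and 2.64 CPM.

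Genes around the synthetases in tRNA biology were read from 3 lists. In these, 1 gene rose and 1 fell, beside 0.582% and 1.34% of all genes tested. The charging and editing list of 12 genes held Gars, itself a synthetase, as well as partners of the synthetases. None of the partners was called. Gars alone was called, reading 119.7, 128 and 133 normalised CPM in WT and 136, 146 and 151 in ETAQ/+ without overlap. Its log2 fold change of 0.19 ± 0.03 (edgeR adjusted p = 0.00408) lay between those of Iars and Lars. The median of this list was -0.00.

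Of 41 genes of tRNA maturation and export, 0 were called by edgeR, and the median was -0.01. At an unadjusted p below 0.05, 2 were higher and 2 lower in edgeR, beside 4.53% and 6.36% of all genes tested. Xpot, the nuclear export receptor for tRNA, read 80.5, 85.3 and 87.3 normalised CPM in WT and 88.6, 91.6 and 95.1 in ETAQ/+. The mice of the genotypes did not overlap, and the log2 fold change of 0.12 ± 0.03 had an edgeR adjusted p of 0.0575. Xpot passed the threshold in DESeq2 (adjusted p = 0.00748) and with the set of mice as a covariate in edgeR (0.0312). Pop1, a subunit of the ribonuclease that trims the 5′ end of tRNA, had a log2 fold change of -0.29 ± 0.10 (adjusted p = 0.234), and its genotypes overlapped.

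Of 23 genes of RNA polymerase III, which transcribes tRNA, and its factors, 1 fell, beside 1.34% of all genes tested. Polr3g, a subunit with an alternative form encoded by Polr3gl, read 15.4, 16.4 and 19.7 normalised CPM in WT and 9.41, 9.76 and 12.2 in ETAQ/+. All ETAQ/+ cords lay below all WT cords, and the log2 fold change was -0.74 ± 0.07 with an edgeR adjusted p of 1.6e-05. Polr3gl had a log2 fold change of 0.15 ± 0.05 (adjusted p = 0.272) with overlap, and the median of the list was -0.02. The 5 tested motor neuron markers had log2 fold changes from -0.84 (Prph) to -0.02 (Isl1), with Mnx1 at -0.14. Of the 5, 2 were called (Chat at -0.64 and Prph), and the part of these markers in the Polr3g value was not tested.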

How the data were processed

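RNA was measured in whole spinal cord of 12 mice, and titles and labels gave genotype, sex and mouse number. Per the labels' protocols, polyA RNA was sequenced as 75 bp paired reads, and KAPA Stranded mRNA-Seq and KAPA mRNA HyperPrep kits are both named without saying which library had which. The submitters' processing notes name Bowtie2 2.2.0 and RSEM 1.2.12; RSEM divides reads between similar genes by estimate. Build, annotation and strandedness of the authors' counting are not given in the sources used here. Per the file headers, the deposited tables hold an expected count for each of 38924 genes, of which 15.4% of values were not whole. The deposited TPM values, scaled to gene length and library, were used for levels between genes. The deposited FPKM values were not used.

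Expected counts were rounded and analysed in R 4.3.3 with edgeR 4.0.16. The filterByExpr function over the 4 genotype-by-sex groups left 17189 genes, libraries were scaled by TMM (factors 0.975 to 1.02), and normalised CPM uses these factors. The robust quasi-likelihood test compared ETAQ/+ with WT with sex as covariate. Two-sided p values were adjusted over all tested genes (Benjamini-Hochberg, threshold 0.05). Contrasts within sexes and within mice 1 to 6 and 7 to 12 came from fits of all 12 libraries. Each library held 23595929 to 41452662 expected counts. DESeq2 1.42.0, limma-voom (limma 3.58.1), RLE scaling, no filter, limma on log2(TPM + 0.1), other covariates and the omission of each mouse were tried as alternatives. The scripts were tested on simulated data. GENCODE M21 (GRCm38) gave positions, exon overlap and shared 75-base sequences, with 5% shared taken as uncertain, and RefSeq (GRCm38.p6) gave promoters.

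The members and lists were chosen with earlier results of these data known. Values are given in full for called members and for up to 4 uncalled members with the smallest p in each class, and for up to 4 called or otherwise the 2 with the smallest p in each related list. The look at genes that share the low mice of Lars2, the division by structural class and the comparison of amino acid pairs were added after seeing the data. Polr3gl and Ddit3, as a relative and a neighbour of named genes, and some cell markers were named outside this rule, after their values were seen. The remaining promoter matches are not reported here.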

Additional observations from a re-analysis of the deposited data

Results flagged for a closer look

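Mars in mouse 6, an ETAQ/+ male, read 60.4 normalised CPM, and the nearest of the other ETAQ/+ cords read 56.4. The gap took 0.69 of the whole range of the 6 mice, above Dixon's critical value for a group of that size. This was the single such value among the 76 groups of 6 mice that were looked at (38 members in each genotype), and chance flags about 1 in 20 groups. Without mouse 6 Mars was still called.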

How the results depend on the processing

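No paired analysis was possible because the groups share no mouse number. The count of 8 called members was 11 in DESeq2, 9 in limma-voom and 8 with RLE scaling. It was 7 with no filter, 8 without the sex covariate and 11 with the set of mice as covariate. Of all genes tested, the main fit called 0.582% higher, DESeq2 0.942%, limma-voom 0.582% and the fit with the set 0.878%. The count was 4 with limma on log2(TPM + 0.1), and the cause of this was not tested. The contrasts within mice 1 to 6 and within mice 7 to 12 gave 3 each and rest on fewer mice per effect. Both came from a single fit of all 12 libraries with a shared sex term and spread, so they are not independent of each other. Leaving out each mouse in turn gave 5 to 8, with 5 (Aars, Cars, Iars, Lars and Mars) without mouse 2, 9 or 10. In these fits all called members were higher in ETAQ/+, and 0 were mitochondrial. The females' count of 3 was 5 in DESeq2 and 1 to 3 with a mouse left out. The males' count of 3 was 7 in DESeq2 and 2 to 3 with a mouse left out. Shares of all genes called in the DESeq2 fits within a sex and in the other alternatives are not given here. A higher count there may go with more calls among all genes. The sex difference had 0 calls in all fits, and the difference between the sets of mice 0 to 1. No named result changed sign past the threshold. Library totals and 6 mice per genotype limit the small differences that can be called, most of all in the mitochondrial genes.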
